A study of Sus scrofa with 60 samples.

Results

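MFSD2A and 7 genes of the fasting response that answer to the nuclear receptor PPARA, or act beside it, were followed through 60 liver libraries of newborn pigs, each called a liver here. The 8 genes were MFSD2A, ANGPTL4, PDK4, CPT1A, FGF21, PLIN2, CREB3L3, and PPARA, taken by name from 30335 named features of the deposited table of read counts. They were selected on values in these same data, namely that MFSD2A was high in only some of the livers of the SLE-BDL group. Every level of MFSD2A in SLE-BDL, and every comparison of MFSD2A with that group, is therefore given as a description without a test.

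In the fasted liver, fatty acids released from adipose tissue bind PPARA, a transcription factor that turns on genes for the uptake, oxidation, and export of fat. CREB3L3, a factor held in the membrane of the endoplasmic reticulum until it is cut free, acts with PPARA on several of the same genes, among them the gene for the hormone FGF21. MFSD2A carries lysophosphatidylcholine, a phospholipid with a single fatty acid chain, into cells, is best known at the blood-brain barrier, and is induced by fasting in mouse liver.

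The pigs came from Landrace and Hampshire sows by cesarean section, were of both sexes, and had either ligation of the bile duct (BDL) or a sham operation soon after birth. They were then fed for the first 14 days of life in one of 3 ways. ENT pigs took milk replacer by gut, while SLE and MLE pigs received parenteral nutrition (PN) through a vein, with a soy lipid emulsion (labelled IL) or a mixed lipid emulsion (labelled SL). ENT pigs had PN too at the start, for a day in full and then in falling amounts during the first week, so the comparisons of PN with ENT are not with pigs that never had it. The groups were ENT-sham (n = 12), ENT-BDL (n = 10), SLE-sham (n = 10), SLE-BDL (n = 11), MLE-sham (n = 9), and MLE-BDL (n = 8), with 1 liver RNA library each at day 14. Every pig was operated on, so the sham groups were not free of surgery, and no group received PN without lipid. The sample titles also hold a number, shared by livers of several groups, that was spread unevenly over the diets. ENT-sham replicates 1 to 10 and ENT-BDL replicates 1 to 7 shared no number with any MLE liver. ENT-sham replicates 1 to 7 shared none with SLE-sham. The comparisons of PN with ENT are thus in part comparisons between title numbers.

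The libraries held 14469788 to 21374161 counted reads (median 17254606), and 10 hepatocyte markers summed to 71947 CPM or more in each of the 60. Values below are read counts scaled to library size after normalization (CPM), or log2 fold changes from edgeR fitted to 16210 genes. Their standard error (SE) was derived from the test, as the absolute log2 fold change over the square root of the F statistic. A gene passed the test at an adjusted p under 0.05, and is counted as called where it also differed by more than 2-fold. ENT-sham replicate 2 and ENT-BDL replicate 1 were nearly the same library: the counts of 15011 genes gave a chi-square of 1.93 for each degree of freedom, while the second closest of 1770 pairs gave 16.2. The cholangiocyte markers of ENT-sham replicate 2 summed to 306 CPM, near the 303 CPM of ENT-BDL replicate 1 and above the 42.1 to 72.7 CPM of the other ENT-sham livers. Both were kept under their labels, and results of the 8 genes that passed or missed the test only because of them are given without them too. SLE-sham replicates 9 and 10 bore the same letter and number in their titles, so they may share a pig; their chi-square of 34.3 ranked 51 of the 1770 pairs from the closest, and they were kept as 2 samples.

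All 8 genes had enough reads to be tested, and 7 of them had reads in every library. MFSD2A (chromosome 6, 95738961-95753245, assembly Sscrofa11.1, plus strand) had between 0 and 2571 reads and was at 0 in 2 ENT-sham livers, where 0 still allows up to 3 reads. It was the lowest of the 8 genes per length in ENT-sham, with a median of 0.0287 CPM per kb against 121.7 CPM per kb for CREB3L3, the highest.

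MFSD2A was close to absent in most livers fed by gut after sham surgery, was higher in every other group by median, and reached over 100 CPM in 2 SLE-BDL livers. The lowest, median, and highest values were 0, 0.0625, and 1.61 CPM in ENT-sham and 0.0551, 0.915, and 1.82 CPM in ENT-BDL. In MLE-sham they were 0.542, 1.11, and 4.62 CPM, and in MLE-BDL 0.708, 1.63, and 3.29 CPM. In SLE-sham they were 1.23, 2.50, and 11.13 CPM. The groups stand here in the order of their medians, with SLE-BDL above them at 3.09 CPM, and the ranges of each pair of neighbours in that order overlapped.

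The 11 SLE-BDL livers split widely in MFSD2A. Replicates 7 and 9 had 172 and 122 CPM, replicates 6 and 5 had 20.7 and 16.2 CPM, and the other 7 lay between 0.289 CPM in replicate 11 and 3.79 CPM in replicate 2. The 4 high livers were above all 10 SLE-sham livers, while 6 of the other 7 lay within their range and replicate 11 lay below it. By the numbers in the sample titles the high livers were not all apart. SLE-BDL replicate 9 bore the number of SLE-sham replicate 6, the highest of its group. SLE-BDL replicates 6 and 7 shared a number, and replicate 5 shared one with replicates 1 to 4, which were not high. In reads, replicate 7 had 2571 and replicate 11 had 5. The mean of 31.5 ± 58.4 CPM (SD, n = 11) was thus set by few animals: it was 8.23 times the SLE-sham mean of 3.83 ± 3.48 CPM (n = 10), while the ratio of medians was 1.24.

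**Figure D1:**
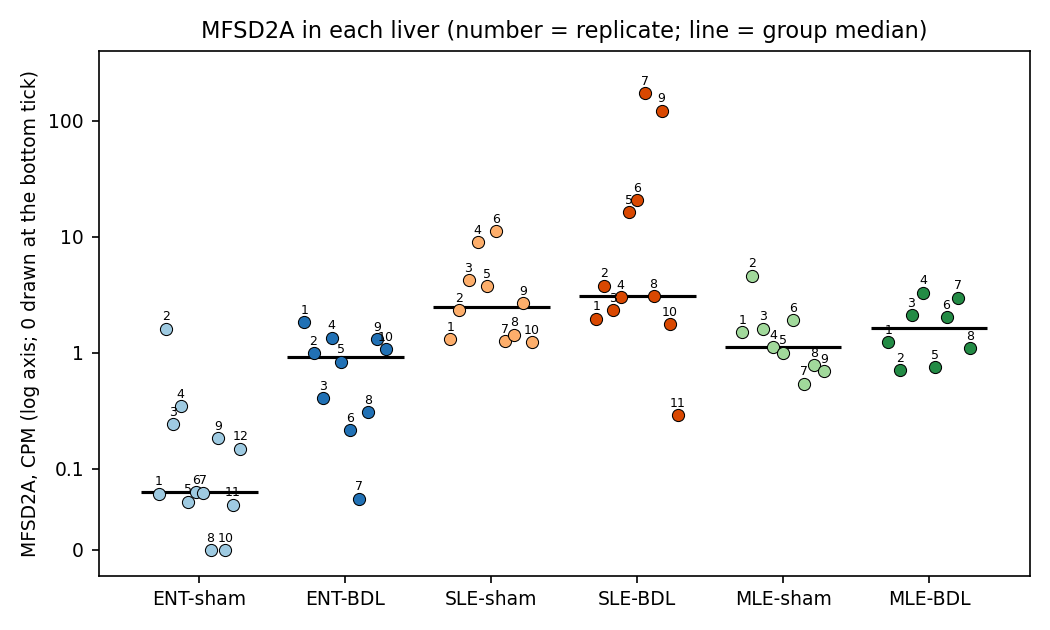
MFSD2A in CPM on a log axis for each of the 60 livers by group, with the replicate number above each point, a line at the group median, and values of 0 at the bottom tick. Of the 11 SLE-BDL livers, replicates 5, 6, 7, and 9 sit above all SLE-sham livers, and replicate 2 of ENT-sham sits apart from the other 11.

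Among sham pigs, PN went with more MFSD2A. In SLE-sham it was higher than in ENT-sham by 3.82 log2 (SE 0.82, adjusted p = 0.000277), and 6 of 10 SLE-sham livers were above every ENT-sham liver. That count was set by ENT-sham replicate 2, at 1.61 CPM. The next ENT-sham liver had 0.345 CPM, and the lowest SLE-sham liver had 1.23 CPM. Without the 2 close libraries the difference was 4.98 log2 (adjusted p = 4.88e-05). In MLE-sham it was higher by 2.50 log2 (SE 0.89, adjusted p = 0.0366), or 3.66 log2 (adjusted p = 0.00751) without the close libraries. The MLE-sham difference missed the threshold with voom (adjusted p = 0.157), with the number in the sample titles as a block (adjusted p = 0.102), and in 9 of 21 fits that left out 1 liver, with values from 2.08 log2 without MLE-sham replicate 2 to 3.66 log2 without ENT-sham replicate 2. MLE-sham against SLE-sham gave -1.33 log2 (SE 0.75, adjusted p = 0.524), with overlapping groups.

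BDL on ENT gave 1.63 log2 in MFSD2A (SE 0.92, adjusted p = 0.229) and, without the close libraries, 2.57 log2 (adjusted p = 0.0989). On that diet 4 of 12 ENT-sham livers lay below every ENT-BDL liver. ENT-BDL replicate 7 set that count at 0.0551 CPM, and the next ENT-BDL liver had 0.215 CPM, against an ENT-sham median of 0.0625 CPM. BDL on MLE gave 0.22 log2 (SE 0.80, adjusted p = 0.899), and MLE-BDL against ENT-BDL 1.08 log2 (SE 0.81, adjusted p = 0.397). As a description, the fitted values with SLE-BDL were 3.03 log2 against SLE-sham and 5.22 log2 against ENT-BDL, and -4.14 log2 for MLE-BDL against SLE-BDL. Leaving out replicate 7 alone brought these to 2.18, 4.36, and -3.30 log2.

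PPARA (chromosome 5, 3302755-3321091, minus strand), the receptor itself, was higher on PN in sham livers by less than 2-fold. Its mean was 45.1 ± 7.98 CPM in ENT-sham (SD, n = 12), 57.1 ± 6.14 CPM in SLE-sham (n = 10), and 61.7 ± 9.42 CPM in MLE-sham (n = 9). It rose by 0.34 log2 (SE 0.12, adjusted p = 0.0247) in SLE-sham and by 0.45 log2 (SE 0.12, adjusted p = 0.00451) in MLE-sham. The SLE-sham result missed the threshold without ENT-sham replicate 9 or without SLE-sham replicate 6, which at 71.5 CPM was the highest of its group, with adjusted p up to 0.0619. With the number in the sample titles as a block both PPARA results missed it (adjusted p = 0.216 in SLE-sham and 0.119 in MLE-sham).

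Among BDL pigs, PPARA was 36.1 ± 6.54 CPM in ENT-BDL (n = 10), 45.2 ± 13.1 CPM in SLE-BDL (n = 11), and 49.4 ± 5.64 CPM in MLE-BDL (n = 8). It rose in MLE-BDL by 0.45 log2 against ENT-BDL (adjusted p = 0.0119), where 9 of 10 ENT-BDL livers lay below every MLE-BDL liver, but missed the threshold with that block (adjusted p = 0.0696). SLE-BDL against ENT-BDL gave 0.32 log2 (adjusted p = 0.0512), and passed in 5 of 21 fits without 1 liver, with 0.41 log2 (adjusted p = 0.00503) without SLE-BDL replicate 2. BDL did not move PPARA past the test on any diet with all livers in, at -0.32 log2 on ENT (adjusted p = 0.0545, and -0.36 log2 with adjusted p = 0.0344 without the close libraries), -0.34 log2 on SLE (adjusted p = 0.0985), and -0.32 log2 on MLE (adjusted p = 0.102). It passed in 5 of 22 fits without 1 liver on ENT, in 1 of 21 on SLE (without SLE-BDL replicate 11, adjusted p = 0.0407), and in 0 of 17 on MLE.

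CREB3L3 (chromosome 2, 74578471-74588269, minus strand) was the gene of the 8 that fell after BDL on all 3 diets. The log2 change was -0.46 on ENT (SE 0.09, adjusted p = 0.000267), -0.44 on SLE (SE 0.09, adjusted p = 0.00318), and -0.41 on MLE (SE 0.11, adjusted p = 0.00444). Means went from 235 ± 33.6 to 171 ± 24.0 CPM on ENT, from 325 ± 30.2 to 240 ± 47.0 CPM on SLE, and from 267 ± 40.2 to 201 ± 19.2 CPM on MLE (SD, n as above). The groups separated well: 11 of 12 ENT-sham livers were above every ENT-BDL liver, and the exception was ENT-sham replicate 2 at 138 CPM. Cell type markers moved as well: of 10 hepatocyte markers, 6 fell and 1 rose after BDL on ENT (list median -0.41 log2), 0 fell and 1 rose on SLE (-0.05 log2), and 7 fell and 0 rose on MLE (-0.74 log2). Of 7 cholangiocyte markers, 6, 2, and 7 rose on ENT, SLE, and MLE and none fell. Of 8 stellate cell and fibroblast markers, 2, 2, and 4 rose and none fell, with list medians of 0.57, 0.55, and 0.89 log2. Of all genes 8.89% rose and 8.53% fell after BDL on ENT, 2.97% and 1.57% on SLE, and 7.85% and 6.58% on MLE. The part of the cell type markers in the CREB3L3 values was not tested.

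CREB3L3 also rose with SLE, by 0.47 log2 in SLE-sham against ENT-sham (adjusted p = 5.76e-05), where all 10 SLE-sham livers were above all 12 ENT-sham livers. It rose by 0.49 log2 in SLE-BDL against ENT-BDL (adjusted p = 0.000117). On MLE the same differences were 0.19 log2 (adjusted p = 0.156) and 0.23 log2 (adjusted p = 0.104). MLE against SLE did not pass, at -0.29 log2 in sham livers (adjusted p = 0.170) and -0.25 log2 in BDL livers (adjusted p = 0.236). Each of the 5 CREB3L3 results that passed did so with any 1 liver left out, but over the title numbers held by both groups BDL on SLE missed the threshold (-0.31 log2, adjusted p = 0.228).

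ANGPTL4 (chromosome 2, 70905767-70912892, minus strand) encodes a secreted protein that inhibits lipoprotein lipase, the enzyme that frees fatty acids from circulating triglycerides. Its lowest, median, and highest values were 17.6, 40.8, and 57.3 CPM in ENT-sham, 33.0, 64.4, and 105 CPM in SLE-sham, and 18.8, 25.3, and 61.7 CPM in MLE-sham. After BDL they were 28.4, 49.1, and 75.1 CPM on ENT, 34.5, 47.2, and 385 CPM on SLE, and 20.8, 31.3, and 54.0 CPM on MLE. Livers on MLE were thus the lowest by median with either surgery, while SLE-sham was the highest among sham groups, and 8 of 9 MLE-sham livers lay below all SLE-sham livers.

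ANGPTL4 was lower in MLE-sham than in SLE-sham (-1.23 log2, SE 0.32, adjusted p = 0.0426) and lower in MLE-BDL than in SLE-BDL (-1.37 log2, SE 0.33, adjusted p = 0.0248). It was higher in SLE-sham than in ENT-sham (0.74 log2, SE 0.29, adjusted p = 0.0495) and in SLE-BDL than in ENT-BDL (0.82 log2, SE 0.30, adjusted p = 0.0449). These 4 results sat near the threshold. Both that use SLE-BDL moved most without replicate 9, when MLE-BDL against SLE-BDL was -0.77 log2 (adjusted p = 0.116) and SLE-BDL against ENT-BDL was 0.22 log2 (adjusted p = 0.559). The latter also missed the threshold without the close libraries (adjusted p = 0.0515). In all, MLE-BDL against SLE-BDL missed it in 6 of 19 fits without 1 liver and SLE-BDL against ENT-BDL in 9 of 21, and with voom both did (adjusted p = 0.0925 and 0.260). With the replicate number as a block adjusted p was 0.0985 and 0.211. The sham results missed it in 14 of 19 and 18 of 22 fits without 1 liver, with adjusted p up to 0.106 and 0.108. BDL gave 0.30, 0.38, and 0.23 log2 on ENT, SLE, and MLE (adjusted p = 0.533, 0.539, and 0.708), with -0.23 log2 on SLE without replicate 9, and 0.10 log2 on MLE without MLE-BDL replicate 6 and 0.46 log2 without MLE-sham replicate 7.

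FGF21 (chromosome 6, 54082653-54084532, plus strand), a hormone made by the liver in fasting and in stress, was higher on SLE than on ENT. It rose in SLE-sham against ENT-sham by 1.39 log2 (SE 0.26, adjusted p = 4.26e-05), from 3.77 ± 1.72 CPM (n = 12) to 9.93 ± 3.51 CPM (n = 10). It rose in SLE-BDL against ENT-BDL by 1.09 log2 (SE 0.27, adjusted p = 0.00238), from 5.77 ± 1.91 CPM (n = 10) to 12.3 ± 7.80 CPM (n = 11). Both results passed with any 1 liver left out, and without SLE-BDL replicate 9, at 33.2 CPM, the second was 0.82 log2.

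On MLE the FGF21 means were 6.11 ± 3.08 CPM (sham, n = 9) and 9.63 ± 3.57 CPM (BDL, n = 8). The differences from ENT were 0.69 log2 (adjusted p = 0.0627) and 0.73 log2 (adjusted p = 0.0696), and without the close libraries 0.81 log2 (adjusted p = 0.0278) and 0.80 log2 (adjusted p = 0.0459). With 1 liver left out they passed in 5 of 21 and 0 of 18 fits. MLE against SLE did not pass, at -0.70 log2 in sham livers (adjusted p = 0.275) and -0.36 log2 in BDL livers (adjusted p = 0.626). BDL gave 0.61, 0.31, and 0.65 log2 on ENT, SLE, and MLE, with adjusted p of 0.104, 0.577, and 0.132. On ENT the value was 0.73 log2 (adjusted p = 0.0414) without ENT-sham replicate 2 alone, and on SLE it was 0.05 log2 (adjusted p = 0.960) without SLE-BDL replicate 9.

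PDK4 (chromosome 9, 75246956-75260134, minus strand), a kinase that switches off pyruvate dehydrogenase and so spares glucose, went the other way and was lower on PN in each of the 4 comparisons with ENT. Its lowest, median, and highest values were 101, 197, and 323 CPM in ENT-sham, 79.1, 125, and 133 CPM in SLE-sham, and 45.2, 61.1, and 123 CPM in MLE-sham. After BDL they were 164, 220, and 324 CPM on ENT, 53.0, 72.9, and 298 CPM on SLE, and 29.9, 45.7, and 90.2 CPM on MLE. ENT-BDL and MLE-BDL did not overlap, and 9 of 11 SLE-BDL livers lay below every ENT-BDL liver, the exceptions being replicates 7 and 9.

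PDK4 fell by 0.75 log2 in SLE-sham (SE 0.22, adjusted p = 0.00685) and by 1.39 log2 in MLE-sham (SE 0.23, adjusted p = 7.75e-06) against ENT-sham. Against ENT-BDL it fell by 1.19 log2 in SLE-BDL (SE 0.22, adjusted p = 7.14e-05) and in MLE-BDL the change was -2.16 log2 (SE 0.25, adjusted p = 7.45e-09). These 4 results passed with any 1 liver left out, but MLE-sham missed the threshold over the title numbers held by both groups (-1.54 log2, adjusted p = 0.0629). Only ENT-sham replicates 11 and 12 and MLE-sham replicates 6 to 9 bore such numbers. MLE-BDL was below SLE-BDL by 0.97 log2 (-0.97, SE 0.24, adjusted p = 0.0284), but without SLE-BDL replicate 9 the value was -0.66 log2 (adjusted p = 0.0972), and the threshold was missed in 8 of 19 such fits, those without SLE-BDL replicates 7 and 9 among them. It was missed with voom as well (adjusted p = 0.0512), and with the replicate number or the title number as a block (adjusted p = 0.0738 and 0.0736). MLE-sham against SLE-sham gave -0.63 log2 (adjusted p = 0.207). BDL gave 0.21, -0.22, and -0.56 log2 on ENT, SLE, and MLE (adjusted p = 0.549, 0.648, and 0.123), with -0.53 log2 on SLE without SLE-BDL replicate 9 (adjusted p = 0.109) and -0.72 log2 on MLE without MLE-BDL replicate 2 (adjusted p = 0.0453).

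CPT1A (chromosome 2, 4250642-4293914, plus strand), which moves long-chain fatty acids onto carnitine for entry into mitochondria, differed least. It fell after BDL on ENT, from 131 ± 24.7 to 97.8 ± 18.9 CPM (-0.42 log2, SE 0.14, adjusted p = 0.0337), and 8 of 12 ENT-sham livers were above every ENT-BDL liver. This result missed the threshold in 10 of 22 fits without 1 liver, with values from -0.47 to -0.36 log2 and adjusted p up to 0.0834. BDL gave -0.20 log2 on SLE (adjusted p = 0.490) and 0.14 log2 on MLE (adjusted p = 0.623). These were -0.39 log2 without SLE-BDL replicate 9 (adjusted p = 0.0728), and on MLE 0.0077 log2 without MLE-BDL replicate 2 and 0.28 log2 without MLE-sham replicate 2. The diet comparisons of CPT1A ranged from -0.38 to 0.38 log2, none past the test, and the nearest was SLE-BDL against ENT-BDL (0.38 log2, adjusted p = 0.0576), which was 0.19 log2 without SLE-BDL replicate 9 and passed in 4 of 21 fits without 1 liver (adjusted p down to 0.0356).

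PLIN2 (chromosome 1, 203683867-203709277, plus strand), a protein that coats lipid droplets, was higher on both emulsions. It rose by 1.46 log2 in SLE-sham (SE 0.17, adjusted p = 1.31e-09), from 33.0 ± 6.85 CPM (n = 12) to 90.8 ± 17.7 CPM (n = 10), and the groups did not overlap. It rose by 0.96 log2 in MLE-sham (adjusted p = 2.97e-05), to 64.3 ± 15.6 CPM (n = 9), where 8 of 9 livers were above all ENT-sham livers. Among BDL pigs it rose from 37.7 ± 15.96 CPM in ENT-BDL (n = 10) by 0.99 log2 in SLE-BDL (adjusted p = 3.29e-05) and by 0.72 log2 in MLE-BDL (adjusted p = 0.00464). All 4 results passed with any 1 liver left out. BDL gave 0.19, -0.28, and -0.05 log2 (adjusted p = 0.481, 0.405, and 0.895) on ENT, SLE, and MLE. On ENT it was 0.0067 log2 without ENT-BDL replicate 2 and on SLE -0.45 log2 without SLE-BDL replicate 9 (adjusted p = 0.986 and 0.119).

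**Figure D2:**
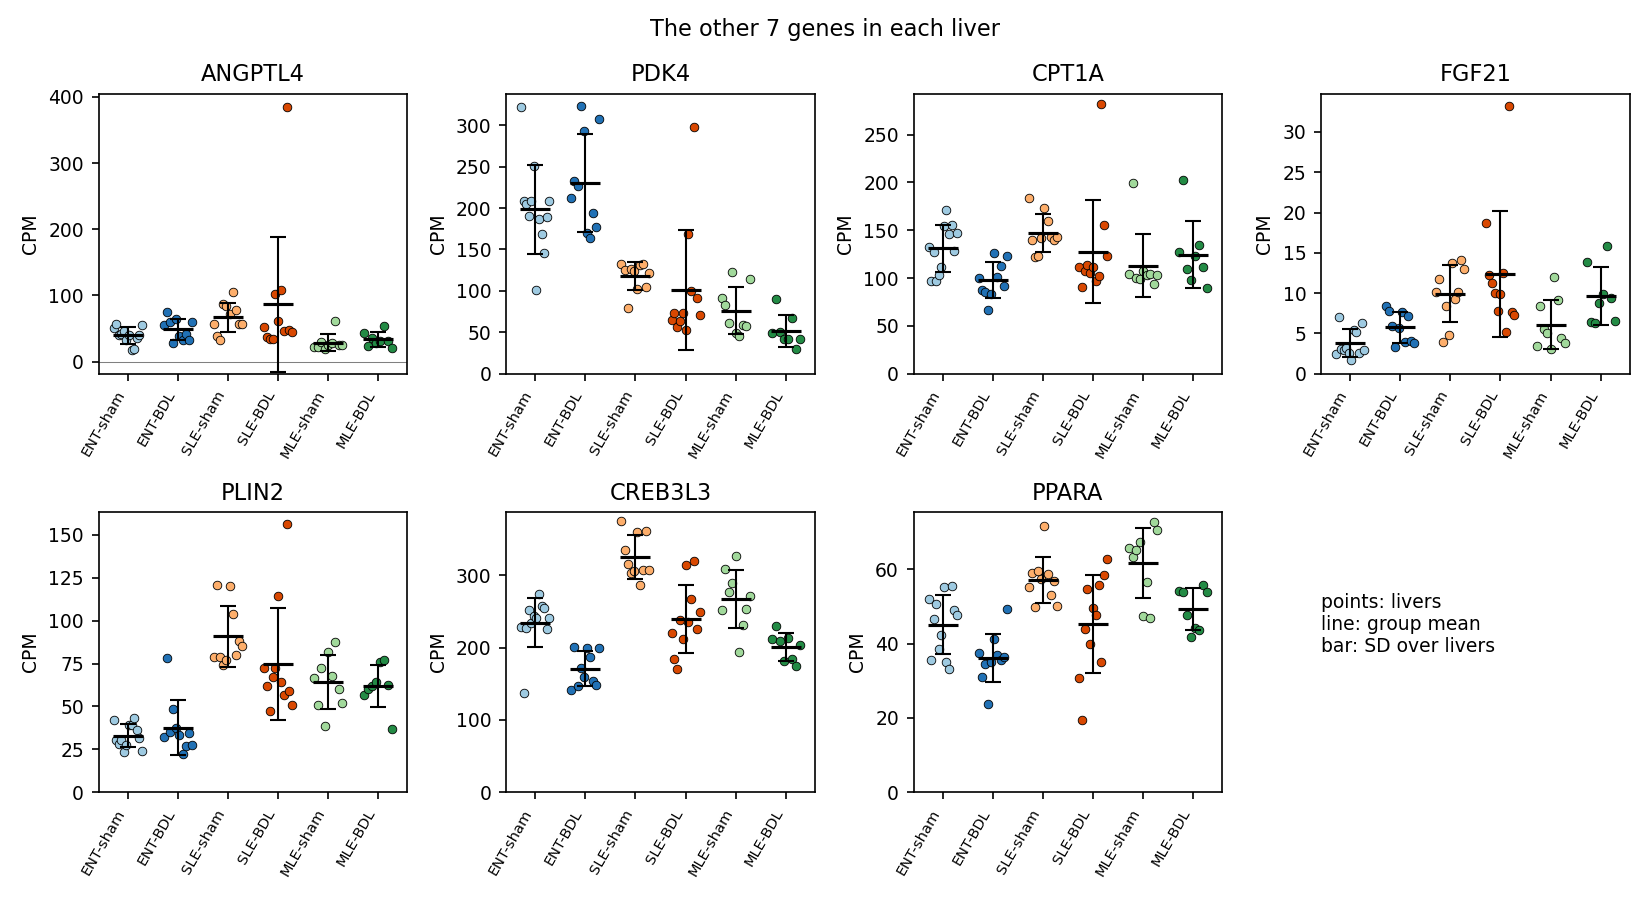
CPM on a linear axis of the other 7 genes in each liver by group, with the mean and the SD over livers. PDK4 is lower and PLIN2 higher in the PN groups than on ENT, CREB3L3 is lower in each BDL group than in its sham group, and 1 SLE-BDL liver (replicate 9) is the highest of its group in 6 of the 7 panels.

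More of the 8 genes passed the test between PN and ENT than after BDL. For SLE-sham against ENT-sham, 7 of 8 passed the test and 3 were called, where 27.5% of all tested genes passed and 5.24% were called. For MLE-sham against ENT-sham, 4 of 8 passed and 2 were called (21.1% and 3.71% of all genes), and for MLE-sham against SLE-sham 1 of 8 passed and was called (0.999% and 0.463%). For SLE-BDL against ENT-BDL, 5 of 7 passed and 2 were called (19.6% and 3.13%), and for MLE-BDL against ENT-BDL 3 of 8 and 1 (16.8% and 3.18%). For MLE-BDL against SLE-BDL, 2 of 7 passed and 1 was called (0.907% and 0.37%). The 7 leave out MFSD2A, and comparisons that share a group share its animals. Cell type markers moved between PN and ENT too. Of 10 hepatocyte markers, 5 fell and 1 rose in SLE-sham (list median -0.34 log2), 2 and 1 in MLE-sham, 2 and 2 in SLE-BDL, and 2 and 0 in MLE-BDL. Of 6 erythroid markers, 2, 2, 1, and 5 fell in that order and none rose, with a list median of -2.33 log2 in MLE-BDL. Cholangiocyte markers summed to medians of 58.2 CPM in ENT-sham and 171 CPM in SLE-sham, where 2 of 7 rose. Of all genes 13.9% rose and 13.6% fell in SLE-sham, and 10.7% and 10.4% in MLE-sham. Among BDL pigs 10.4% and 9.17% did so in SLE-BDL, and 8.53% and 8.27% in MLE-BDL. The part of the cell type markers in the values of the 8 genes was not tested.

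After BDL, 2 of 8 genes passed on ENT, 1 of 7 on SLE, and 1 of 8 on MLE, where 17.4%, 4.54%, and 14.4% of all genes passed. No member was called on any diet with edgeR, DESeq2, or voom, against 3.39%, 1.49%, and 3.78% of all genes with edgeR, and at an unadjusted p under 0.05 edgeR gave 4, 2, and 4 members. A test of the difference between diets in the effect of BDL was passed by 0 of 7 members between SLE and ENT, 0 of 8 between MLE and ENT, and 0 of 7 between MLE and SLE. Of all genes 2.33%, 0.0617%, and 0.265% passed in these tests, in that order. DESeq2 and voom also passed none, and at an unadjusted p under 0.05 edgeR gave 0, 2 (PDK4 and CPT1A), and 0 members.

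**Figure D3:**
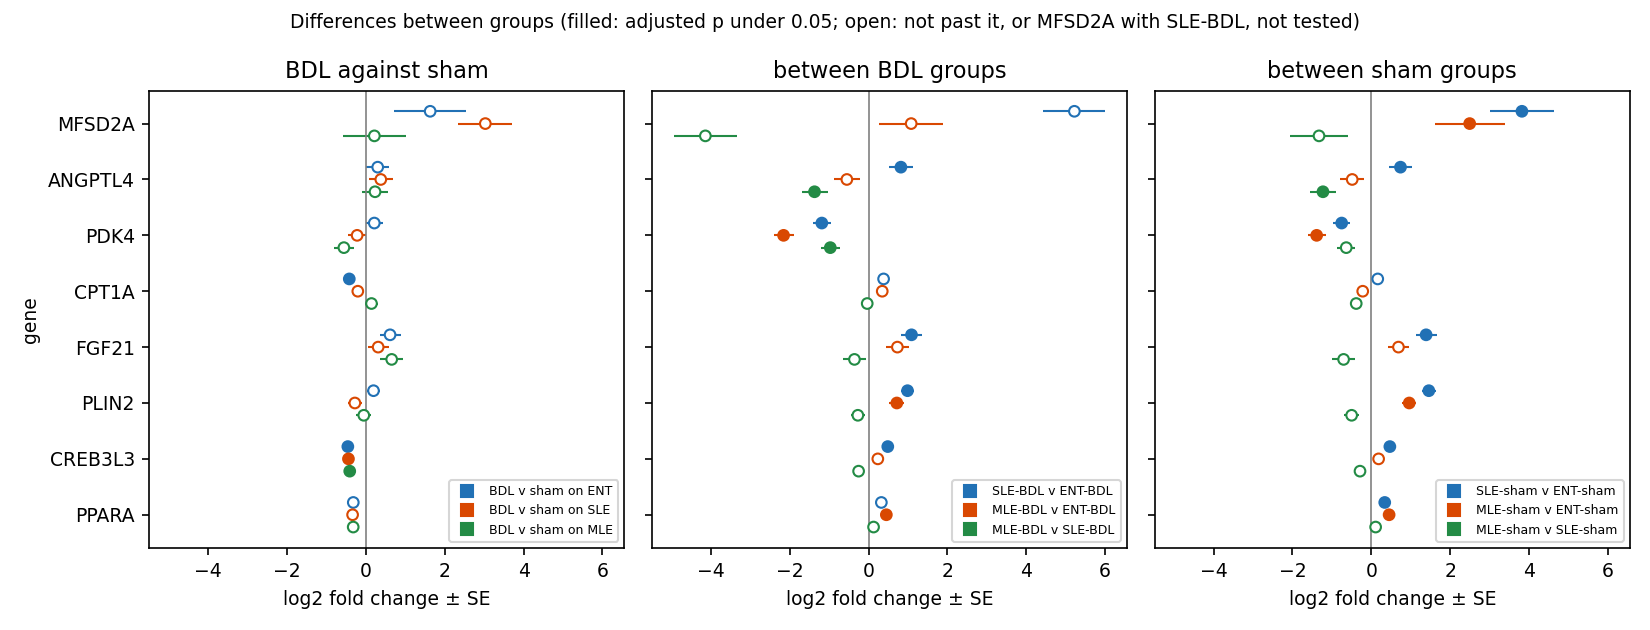
Log2 fold change of the 8 genes with its SE in 9 comparisons, in 3 panels for BDL against sham, between BDL groups, and between sham groups, with filled points at an adjusted p under 0.05. CREB3L3 lies at -0.46 to -0.41 on all diets after BDL, PDK4 lies below 0 in every diet comparison, and MFSD2A has the widest values and errors, with open points in the comparisons with SLE-BDL because it was not tested there. The bars of MFSD2A in those comparisons come from the values that selected it and are no test.

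Within SLE-BDL, the livers high in MFSD2A were not alike in the other genes. Replicate 9 was the highest of the 60 livers in ANGPTL4 (385 CPM), CPT1A (282 CPM), FGF21 (33.2 CPM), and PLIN2 (157 CPM), and the highest of the 11 in PDK4 (298 CPM) and CREB3L3 (319 CPM). In PPARA it ranked 9 of 11, at 35.03 CPM. It was 8.15 times the group median in ANGPTL4, 4.09 times in PDK4, and 2.53 times in CPT1A.

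Replicate 7, with the most MFSD2A, was the second of 11 in ANGPTL4 (108 CPM) and PDK4 (169 CPM), but stood at the group median in PLIN2 (64.1 CPM) and CREB3L3 (235 CPM) and ranked 10 of 11 in CPT1A (97.4 CPM). Replicate 5 was the third in ANGPTL4 (103 CPM), with PDK4 at the group median (72.9 CPM). Replicate 6 was the second in PLIN2 (114 CPM) and CREB3L3 (315 CPM), and the lowest in PDK4 (53.0 CPM). ANGPTL4 was thus the gene in which these 4 livers held the first 4 ranks of 11.

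**Figure D4:**
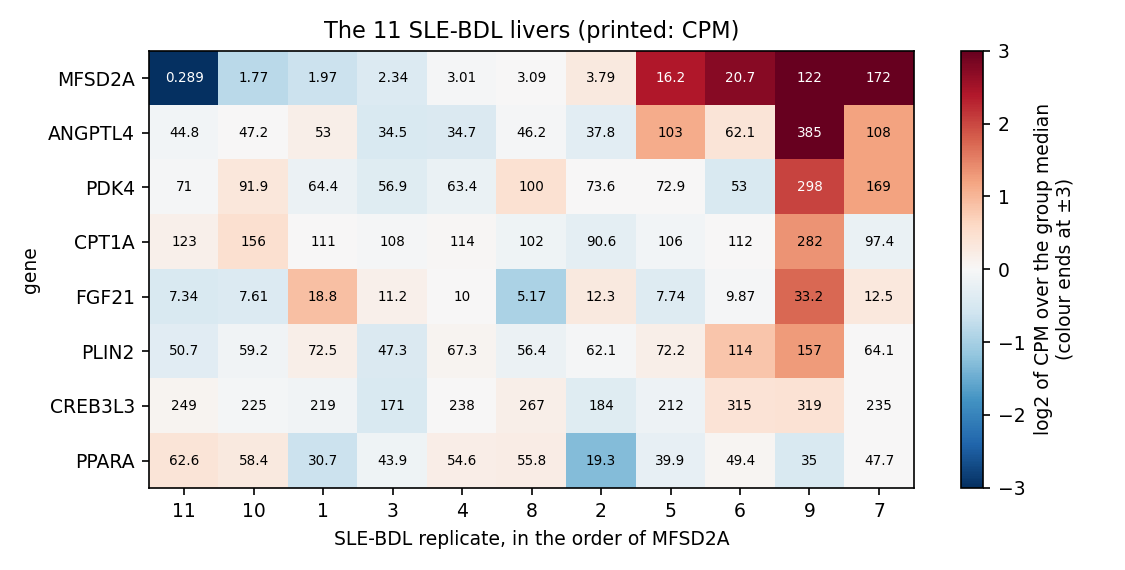
The 8 genes (rows) in the 11 SLE-BDL livers (columns, in the order of MFSD2A), with CPM printed and colour for log2 of CPM over the group median. Replicate 9 is high in 7 of the 8 rows, while replicates 5, 6, and 7 are high in MFSD2A and ANGPTL4 and mixed in the other rows.

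Over the 11 SLE-BDL livers, log2 CPM of ANGPTL4 and of MFSD2A had a Pearson r of 0.79 and a Spearman rho of 0.64, and r was 0.59 without replicates 7 and 9. For PLIN2 these were 0.67, 0.57, and 0.75. For PDK4 they were 0.68, 0.36, and -0.27, so that relation rested on replicates 7 and 9, as did that of FGF21 (0.50, 0.44, and 0.03). CREB3L3 (0.40, 0.28, and 0.21), CPT1A (0.29, -0.34, and -0.36), and PPARA (-0.19, -0.43, and -0.24) had weaker or mixed values. These are descriptions of 11 livers that share a group and its normalization. Over all 60 livers r with MFSD2A was 0.67 for PLIN2, 0.64 for FGF21, 0.51 for ANGPTL4, and -0.26 for PDK4, and with group means taken out 0.34, 0.27, 0.50, and 0.36.

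The genes most like MFSD2A over the 60 livers, among 11717 named genes with a mean of at least 1 log2 CPM, were TTPAL, OAF, SLC5A6, DDIT4, and PIGA, with r from 0.77 to 0.78. TTPAL resembles the transfer protein for vitamin E, SLC5A6 is the transporter of biotin and pantothenate, DDIT4 is an inhibitor of mTOR signalling, and PIGA acts in the first step of making glycosylphosphatidylinositol anchors. With group means taken out, r was 0.64 for TTPAL, 0.56 for OAF, 0.55 for SLC5A6, 0.56 for DDIT4, and 0.49 for PIGA. DDIT4 ranged from 21.1 to 437 CPM and SLC5A6 from 24.8 to 211 CPM, with their highest values in SLE-BDL replicates 9 and 7.

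Over the 11 SLE-BDL livers alone, among 11735 genes, the most alike were XPNPEP1 (r = 0.95), DDX49 (0.94), DNAJC11 (0.93), COQ10B (0.93), and ACTG1, a cytoplasmic actin (0.93). Their ranges were narrow beside that of MFSD2A: XPNPEP1, an aminopeptidase, went from 34.6 to 55.7 CPM and ACTG1 from 927 to 2009 CPM. Without the 2 livers farthest from the median r was 0.90, 0.93, 0.87, 0.86, and 0.78. With so many genes and 11 livers, values of this size are the top of a long list and are given only to name the genes.

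In the wider list of 30 tested PPARA targets, which leaves out the 8 genes, the direction was mixed. In SLE-sham against ENT-sham 12 rose and 7 fell (13.9% and 13.6% of all genes; 11 and 8 without the close libraries), with a list median of 0.11 log2. Those with the largest changes past 2-fold were CD36, a fatty acid transporter, which rose by 1.71 log2, CYP4A24, a fatty acid hydroxylase, at -1.41 log2, and CYP4A21 and ACAA2, a thiolase of fatty acid oxidation, at -1.06 and 1.06 log2. In MLE-sham 5 rose and 8 fell (10.7% and 10.4%), among them CYP4A21 at -2.01, CYP4A24 at -1.58, and TXNIP at -1.01 log2. CYP4A24 and CYP4A21 are close relatives whose reads may be split between them.

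After BDL, 2 of the 30 PPARA targets rose and 6 fell on ENT (8.89% and 8.53% of all genes; 2 and 7 without the close libraries), 0 rose and 9 fell on SLE (2.97% and 1.57%), and 2 rose and 4 fell on MLE (7.85% and 6.58%). CD36 rose by 1.33 log2 on MLE, and none of the 9 on SLE changed by more than 2-fold. The list medians were -0.10, -0.23, and -0.05 log2, against medians over all genes within 0.01 of 0. Between BDL groups, 6 rose and 4 fell for SLE against ENT (10.4% and 9.17%; 5 and 6 without the close libraries), with CD36 at 1.24 log2, 5 rose and 5 fell for MLE against ENT (8.53% and 8.27%; 4 and 4 without them), with CYP4A21 at -1.34 log2, and none passed for MLE against SLE (0.216% and 0.691%). In MLE-sham against SLE-sham 1 passed, CD36 at -1.62 log2 (0.37% and 0.629%).

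Of the 20 genes of the fasting and glucagon list, 8 fell and 1 rose in SLE-sham (13.6% and 13.9% of all genes), with IGFBP1, a binding protein of insulin-like growth factor that insulin represses, at -4.17 log2, the leptin receptor LEPR at -3.12, G6PC, the last enzyme of glucose release, at -2.80, and PCK1, an enzyme of gluconeogenesis, at -1.33 log2. In MLE-sham 6 fell and 1 rose (10.4% and 10.7%), with IGFBP1 at -3.87, LEPR at -2.43, and G6PC at -1.80 log2. Among BDL pigs 4 fell and 3 rose for SLE-BDL against ENT-BDL (9.17% and 10.4%) and 6 fell and 1 rose for MLE-BDL (8.27% and 8.53%), with IGFBP1 at -2.43 and -3.76, LEPR at -2.59 and -3.34, and G6PC at -2.03 and -2.76 log2. In SLE-BDL SDS, an enzyme that breaks down serine, rose by 2.39 log2 against ENT-BDL, and by 1.58 log2 without replicate 9. PDK4 fell beside IGFBP1, LEPR, and G6PC in each of the 4 comparisons, while PLIN2 rose in all 4.

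After BDL on SLE, 4 genes of that list rose and 0 fell (2.97% and 1.57% of all genes), all past 2-fold: SDS by 3.11 log2, IGFBP1 by 1.71, SIK1, a kinase induced by cyclic AMP, by 1.402, and GADD45B by 1.17 log2. SLE-BDL replicates 5, 7, and 9 had SDS at 38.1, 80.8, and 152 CPM, and the other 8 livers of the group had 3.33 to 9.77 CPM. SIK1 was at 71.4, 37.98, and 280 CPM in these 3 livers and at 13.1 to 20.6 CPM in the others. Replicate 6, high in MFSD2A, was among the low livers in both, with 3.68 CPM of SDS and 19.8 CPM of SIK1. Without replicate 9, 2 of the 4 passed, SDS (2.30 log2, adjusted p = 0.00775) and GADD45B (0.83 log2, adjusted p = 0.0131), and IGFBP1 (1.31 log2, adjusted p = 0.0781) and SIK1 (0.45 log2, adjusted p = 0.403) did not. On ENT 1 of the 20 rose and 5 fell (8.89% and 8.53%), and on MLE 1 rose and 7 fell (7.85% and 6.58%), the largest on MLE being G6PC at -1.43 and LEPR at -1.41 log2, beside PCK1 at -1.07 and GADD45B at 1.098 log2.

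**Figure D5:**
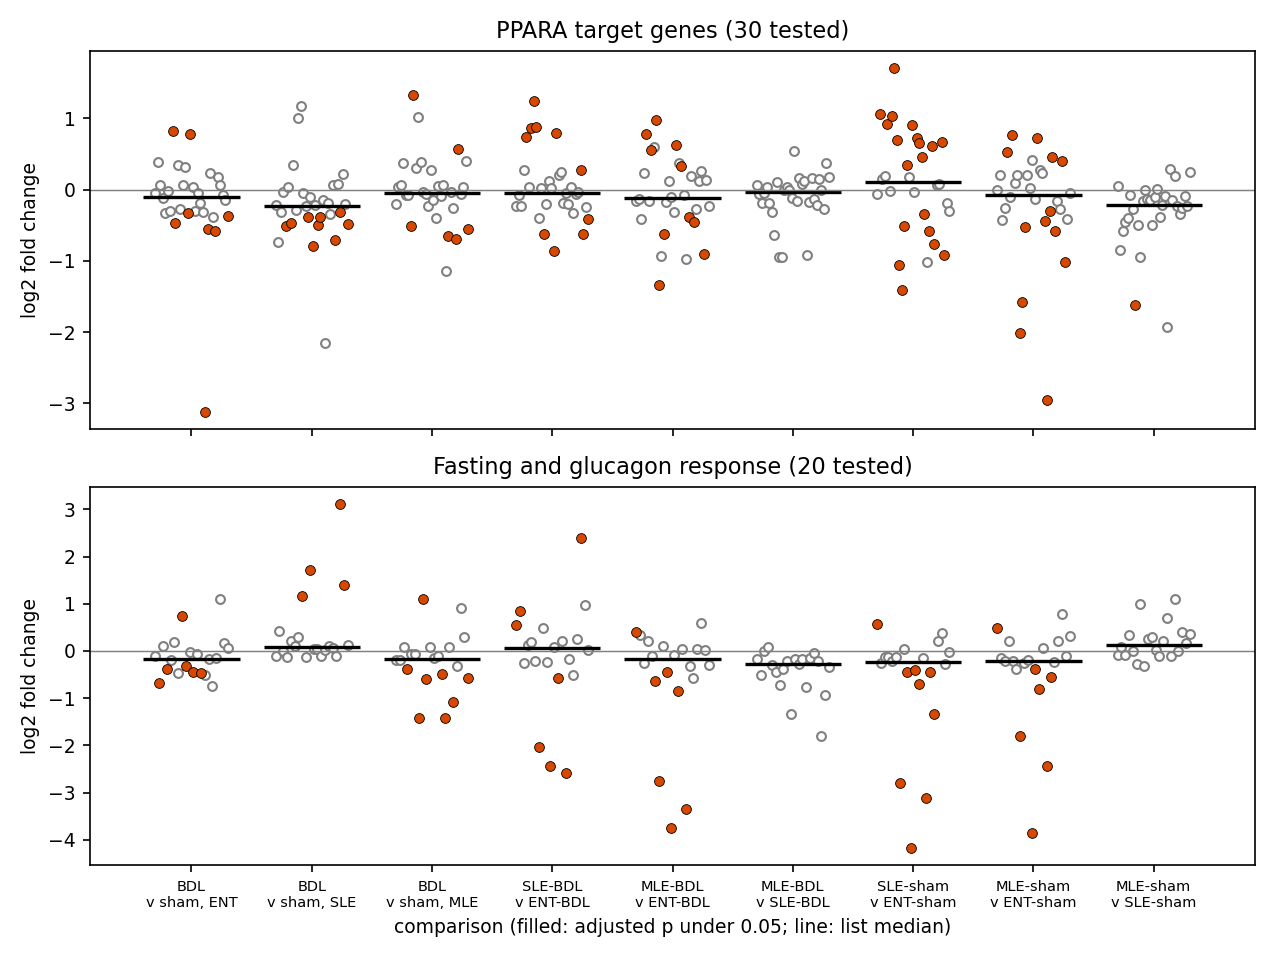
Log2 fold change of each gene of the PPARA target list (30 genes, upper panel) and of the fasting and glucagon list (20 genes, lower panel) in 9 comparisons, with filled points at an adjusted p under 0.05 and a line at the list median. The PPARA targets lie on both sides of 0, while IGFBP1, LEPR, and G6PC are the lowest 3 genes of the fasting list in all 4 comparisons of PN with ENT.

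Of 12 genes of lipoprotein lipase and its regulators, which work beside ANGPTL4, 2 fell and 0 rose in MLE-sham against SLE-sham (0.629% and 0.37% of all genes), and 3 fell and 0 rose in MLE-BDL against SLE-BDL (0.691% and 0.216%), or 2 and 0 without SLE-BDL replicate 9. LPL itself rose by 4.37 log2 in SLE-sham against ENT-sham and was 4.36 log2 lower (-4.36) in MLE-sham than in SLE-sham, with medians of 0.135 CPM in ENT-sham, 2.41 CPM in SLE-sham, and 0.250 CPM in MLE-sham. It also rose after BDL on ENT (3.03 log2) and on MLE (3.78 log2), while BDL on SLE gave 0.06 log2 (adjusted p = 0.966). The other gene of the list to fall in MLE-sham against SLE-sham was the apolipoprotein APOA4 (-1.96 log2). APOA5, an activator of the lipase, fell on both emulsions in sham livers, by 1.93 log2 on SLE and by 2.68 log2 on MLE, and was 1.76 log2 lower (-1.76) in MLE-BDL than in SLE-BDL. LIPG, an endothelial lipase, passed in SLE-BDL against ENT-BDL (1.63 log2), but was at 216 CPM in SLE-BDL replicate 9 against a group median of 7.63 CPM, and the value without replicate 9 was 0.18 log2 (adjusted p = 0.755). Against the ENT groups, 3 rose and 3 fell in SLE-sham (13.9% and 13.6% of all genes; 3 and 4 without the close libraries), 1 and 3 in MLE-sham (10.7% and 10.4%), 4 and 1 in SLE-BDL (10.4% and 9.17%; 2 and 1 without replicate 9), and 1 and 4 in MLE-BDL (8.53% and 8.27%).

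Of 15 genes of lysophospholipid and fatty acid uptake, the nearest relative of MFSD2A on the list, MFSD2B, named here after its values were seen, passed in none of the 9 comparisons and had a mean of about the same size in all groups, from 0.594 to 1.03 CPM. Against ENT, 2 rose and 3 fell in SLE-sham (13.9% and 13.6% of all genes), 0 and 1 in MLE-sham (10.7% and 10.4%; 0 and 2 without the close libraries), 3 and 2 in SLE-BDL (10.4% and 9.17%), and 0 and 1 in MLE-BDL (8.53% and 8.27%). SLC27A5, a liver fatty acid transport protein that also joins bile acids to coenzyme A, differed by 2-fold or more in all 4, and was at -1.84 log2 in SLE-sham, -1.61 log2 in MLE-sham, -1.296 log2 in SLE-BDL, and -2.05 log2 in MLE-BDL.

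FGF21 stood beside a list of 17 FGF receptors and ATF4 targets, of which 12 rose and 2 fell in SLE-sham (13.9% and 13.6% of all genes), 11 and 1 in MLE-sham (10.7% and 10.4%), 8 and 2 in SLE-BDL (10.4% and 9.17%), and 10 and 1 in MLE-BDL (8.53% and 8.27%) against ENT. Without the close libraries these were 12 and 2, 10 and 1, 8 and 1, and 9 and 1. TRIB3, a pseudokinase induced in stress, rose by 1.70, 1.67, 1.70, and 2.18 log2, and CHAC1, an enzyme that degrades glutathione, by 2.27, 1.98, 2.19, and 2.51 log2 in that order. DDIT3, the stress factor CHOP, rose by 1.43, 1.33, 1.79, and 1.81 log2. GDF15, a hormone released in stress, rose by 1.49 log2 in SLE-sham, by 3.22 log2 in SLE-BDL (1.77 log2 without replicate 9), and by 2.53 log2 in MLE-BDL, and was at 0.98 log2 in MLE-sham (adjusted p = 0.136). After BDL 3 rose and 1 fell on ENT (8.89% and 8.53%), 3 and 1 on SLE (2.97% and 1.57%), and 2 and 2 on MLE (7.85% and 6.58%), with ATF3, another stress factor, at 1.14, 1.28, and 1.92 log2. Without SLE-BDL replicate 9 the count on SLE was 1 and 1, and ATF3 there was 0.84 log2 (adjusted p = 0.0993).

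Other lists are given for SLE-sham against ENT-sham, where 13.9% of all genes rose and 13.6% fell, and in part for MLE-sham (10.7% and 10.4%). Of 11 genes around PDK4 and CPT1A, 6 rose and 1 fell in SLE-sham (7 and 2 without the close libraries), among them PDK2 at -1.3004, the muscle form CPT1B at 1.13, and the phosphatase PDP1 at 1.07 log2, and 2 rose and 1 fell in MLE-sham. Of 16 lipid droplet genes beside PLIN2, 4 rose and 4 fell in SLE-sham and in MLE-sham (2 and 4 in MLE-sham without the close libraries), with DGAT2, the last enzyme of triglyceride synthesis, at -1.06 log2 in SLE-sham. Of 14 partners of PPARA, 1 rose and 4 fell in SLE-sham (2 and 3 without them), with PPARG at 1.19 log2, and of 7 genes related to CREB3L3, 2 rose and 0 fell (2 and 1 without the close libraries). Of 16 lipogenic genes, 5 rose and 2 fell in SLE-sham (4 and 3 without them), with PKLR at -1.12 log2.

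Of 11 glucocorticoid genes, 5 rose and 1 fell in SLE-BDL against ENT-BDL (10.4% and 9.17% of all genes), with ERRFI1 at 1.58 log2, and 3 rose and 2 fell without replicate 9. In SLE-sham 1 rose and 1 fell, in MLE-BDL against ENT-BDL 0 rose and 3 fell (8.53% and 8.27%), and in MLE-BDL against SLE-BDL 0 rose and 2 fell (0.216% and 0.691%), or 0 and 0 without replicate 9. Of 15 hypoxia genes, 6 rose and 1 fell in SLE-BDL against ENT-BDL (10.4% and 9.17%; 6 and 0 without the close libraries, 5 and 1 without replicate 9), with PFKFB3, which drives glycolysis, at 2.09 log2 in the full group. In MLE-BDL against ENT-BDL 6 of the 15 rose and 2 fell (8.53% and 8.27%), with or without the close libraries.

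In bulk liver, a change in the share of a cell type and a change in RNA per cell cannot be told apart. The 10 hepatocyte markers summed to 171414 CPM in SLE-BDL replicate 7, the highest of that group, to 83765 CPM in replicate 6, and to 141703 and 103225 CPM in replicates 5 and 9, against a group median of 120550 CPM. The 8 endothelial markers summed to 393 and 472 CPM in replicates 7 and 6, the lowest of the 11, against a median of 938 CPM. The 7 cholangiocyte markers summed to 134 CPM in replicate 6 and 347 CPM in replicate 5, the lowest and the highest. The part of these shifts in the MFSD2A values was not tested.

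Markers of other organs were scarce. The 6 adipocyte markers summed to 3.94 to 10.9 CPM in SLE-BDL, with LEP at 0 in all 60 libraries, and 7 skeletal muscle markers to 0.2002 to 1.95 CPM, with MYL1 at 0 in all. The skeletal muscle markers summed to at most 5.30 CPM in any group, but CKM, the only one with enough reads to test, rose in SLE-sham (3.46 log2), MLE-sham (3.15 log2), SLE-BDL (1.92 log2), and MLE-BDL (2.87 log2) against ENT, from a mean of 0.159 CPM in ENT-sham and 0.285 CPM in ENT-BDL. Its part in the values of the 8 genes was not tested. The 5 pancreas markers summed to 0.768 to 2.39 CPM. Among blood cell lists, 6 erythroid markers ranged from 128 CPM in replicate 7 to 1405 CPM in replicate 2, 6 neutrophil markers from 11.3 to 56.2 CPM, and 7 lymphocyte markers from 7.06 CPM in replicate 5 to 24.4 CPM in replicate 6. The 8 stellate cell and fibroblast markers ranged from 1459 CPM in replicate 7 to 8079 CPM in replicate 2, and the 8 macrophage markers from 1106 to 1520 CPM.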

How the data were processed

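Liver RNA of newborn pigs was sequenced in 60 poly-A libraries. Per the submitters' processing notes the tools were HISAT2 2.0.5, StringTie 1.3.3, and featureCounts 1.5.0-p3 with assembly Sscrofa11.1. The study aligned reads with HISAT2, predicted genes with StringTie, and counted reads with featureCounts. The strand setting is not given in the sources used here, so overlapping genes may share reads. The authors deposited raw read counts per gene, and these counts were used unchanged. Groups came from the sample titles, and the study describes its values as those of individual pigs. As a pair of SLE-sham titles share a letter and number, p-values measure the spread between libraries.

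Of 30359 features, 24 without a name (0.00842 to 0.0407% of reads) were left out. Genes passing filterByExpr (16210) were normalized by TMM and tested in 1 fit on the 6 groups with edgeR 4.0.16 (R 4.3.3) by the quasi-likelihood test, two-sided, with Benjamini-Hochberg adjustment. The authors used DESeq2. Log2 CPM had a prior count of 2, and fitted fold changes one of 0.125. Positions are as in the file.

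The 8 genes and 23 lists were chosen with earlier results of these data known, and lists carry no set test. Named list genes were up to 4 past both thresholds with the largest change in a comparison described; not every such gene is named, and 1 is not reported here. Genes like MFSD2A were the 5 with the highest Pearson r among genes averaging 1 log2 CPM or more. In simulated counts for SLE-BDL against ENT-BDL (16210 genes), edgeR found 198 of 200 genes changed by 1.5 log2, with 1 false call. The simulation gave all genes the same dispersion, changed only well-counted genes, and held no outlying livers and no effect of the title numbers. It checks the code, and does not bear on genes with few reads and a wide spread, such as MFSD2A. Alternatives were RLE scaling, other filters, DESeq2 1.42.0, voom (limma 3.58.1), blocks, and leaving out single livers. Figures were drawn with matplotlib 3.10.9.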

Additional observations from a re-analysis of the deposited data

Results flagged for a closer look

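In 6 of 32 sets of 1 gene in 1 group of 8 to 10 livers, a single liver stood far from the rest of its group. Normally distributed values of independent livers would give about 1 in 20. All 6 values lay above the rest of their group. CPM were not shown to be normally distributed, so the count is not set against chance. The groups of 11 and 12 livers, SLE-BDL among them, were not examined in this way. MLE-sham replicate 2 had 4.62 CPM of MFSD2A, against 0.542 to 1.90 CPM in the others, and 200 CPM of CPT1A, against 93.3 to 108 CPM. MLE-sham replicate 7 had 61.7 CPM of ANGPTL4, against 18.8 to 29.3 CPM. MLE-BDL replicate 2 had 202 CPM of CPT1A, against 89.2 to 135 CPM. ENT-BDL replicate 2 had 78.4 CPM of PLIN2, against 22.2 to 48.5 CPM. SLE-sham replicate 6 had 71.5 CPM of PPARA, against 49.9 to 59.6 CPM. These livers were not spread evenly over the numbers in the sample titles. MLE-sham replicate 2, MLE-BDL replicate 2, SLE-sham replicate 6, and SLE-BDL replicate 9 bore the same number. MLE-sham replicate 1, MLE-BDL replicate 1, and ENT-BDL replicate 8 bore it too and had no flagged value. MLE-sham replicate 7 and ENT-BDL replicate 2 bore other numbers. The part of the title number in the flagged values was not tested.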

How the results depend on the processing

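Of 26 results of a gene in a comparison that passed the test, of 69 tested, 14 passed in every alternative, and 18 with each liver left out. Of the 43 others, 10 passed in at least 1 alternative and 7 with at least 1 liver left out. Counted at any fold change, the members that passed were 2, 1, and 1 after BDL on ENT, SLE, and MLE, 5, 3, and 2 for SLE-BDL against ENT-BDL, MLE-BDL against ENT-BDL, and MLE-BDL against SLE-BDL, and 7 and 4 for SLE-sham and MLE-sham against ENT-sham. DESeq2 gave 3 after BDL on ENT, 6 for SLE-BDL against ENT-BDL, and 5 for MLE-sham against ENT-sham, and voom gave 4, 0, and 3 for SLE-BDL against ENT-BDL, MLE-BDL against SLE-BDL, and MLE-sham against ENT-sham, while the other counts by these tools were as with edgeR. For SLE-BDL against ENT-BDL, voom called 1 member, and leaving out single livers gave 1 to 3. For MLE-BDL against SLE-BDL, 0 were called with voom, in a fit on those groups alone, and over the identifier numbers (the number in the sample titles, whose meaning is not given in the sources used here) held by both groups, and single livers left out gave 0 to 2. For MLE-sham against ENT-sham, 1 was called with no filter, with at least 10 counts in every library (where MFSD2A was not tested), with voom, with the identifier number as a block, and over shared identifier numbers, and single livers left out gave 1 to 3. For MLE-sham against SLE-sham, 0 were called with no filter and 2 with the identifier block, and single livers left out gave 0 to 1. The cause of these shifts was not tested.

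Replicate numbers did not pair the livers: over 82 pairs with the same number in groups compared, r of their deviations from the group means ran from -0.231 to 0.381, with a median of -0.011, and 14 of 60 livers were most alike to their own number. With the replicate block 0 members were called for MLE-BDL against SLE-BDL. The identifier numbers gave a median r of 0.129 over 177 pairs, against -0.019 over 1318 others. They were spread unevenly over the diets, and few ENT livers shared a number with MLE livers. Among sham pigs these were ENT-sham replicates 11 and 12, with MLE-sham replicates 6 to 9. Among BDL pigs they were ENT-BDL replicates 8 to 10, with MLE-BDL replicates 1, 2, and 6 to 8. Values over shared numbers for MLE against ENT thus describe few pigs. The part of the numbers in these differences was not tested beyond such fits and the block.

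Directions changed in values that did not pass the test. ANGPTL4 after BDL on SLE was -0.0013 log2 with voom and -0.23 to 0.47 with single livers left out (lowest without SLE-BDL replicate 9), and PDK4 there was 0.18 over shared identifier numbers. CPT1A in MLE-BDL against SLE-BDL was 0.0025 log2 with voom, 0.043 with the replicate block, and -0.17 to 0.15 with single livers left out, and in SLE-sham against ENT-sham -0.067 with the identifier block and -0.084 over shared numbers. PLIN2 after BDL on MLE was -0.13 to 0.028 log2 with single livers left out. The correlations with MFSD2A over 60 livers turned to 0.36 and 0.33 for PDK4, -0.013 and -0.020 for CREB3L3, and -0.13 and -0.069 for PPARA with group means, or group and identifier means, taken out, and for CPT1A to -0.047 by rank and -0.15 with both means out. Over the 11 SLE-BDL livers CPT1A was -0.34 by rank and -0.36 without replicates 7 and 9, and PDK4 -0.27 without them. The values without SLE-BDL replicate 9 for wider lists, without the 2 farthest livers, and without the close libraries in wider lists were chosen after seeing the data.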
